A study of Mus musculus with 24 samples.

Results

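The BMS753 time course of wild-type (WT) P19 cells followed gene expression after 2, 4 and 10 d of differentiation. P19 is a mouse embryonal carcinoma line, a pluripotent line that becomes neural when given retinoids. BMS753 is a synthetic agonist of RARα and was given at 1 μM for 4 d, after which the cells were kept for 6 d in Neurobasal medium with N2 and B27 lacking vitamin A, so that the day 10 cells had been without the agonist for the second stage. The vehicle was ethanol (EtOH), and WT ethanol cultures were sampled at days 2, 4 and 10 on the same schedule. Each condition had 1 library. Every library was compared with the WT ethanol library of day 2, so the 3 BMS753 comparisons share that reference, as do those of ethanol at days 4 and 10. At days 4 and 10 the BMS753 comparisons therefore combine the agonist with time in culture, and at day 10 also with the change to Neurobasal medium. Genes also listed in ethanol on these days are marked for that reason.

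The members described here are all genes in the BMS753 tables of days 2, 4 and 10, in either direction. They number 726, of 1753 genes in at least 1 of the 23 tables of the series. A gene is called listed when its row is in a table, which required an unadjusted p-value under 0.01, and it is called up or down by the sign of its log2 fold change. These p-values compare pairs of single libraries and have no replicate check. The number of genes tested is not in the tables, so no false discovery rate could be given. A gene that is not listed is not shown to be unresponsive.

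Retinoic acid receptors are ligand-dependent transcription factors that sit on DNA as partners of the RXR receptors and switch nearby genes on when retinoic acid binds. Genes that respond directly include enzymes and carriers that handle retinoic acid itself and the Hox genes, which set position along the body axis. In embryonal carcinoma cells the response ends in the loss of the pluripotent state and the appearance of neurons, glia and other cells.

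The DNA letters of greatest relevance to an early retinoid response are the repeats to which the receptors bind. Promoters of the genes listed up at day 2 were therefore searched for direct repeats of the hexamer AGGTCA, with the variant AGTTCA allowed at either place, as were GGGTCA and also the variant GGTTCA. The hexamers had to be spaced by 5 or by 2 bases, and both strands were read. The promoter windows run from 250 bases before to 50 bases after a gene start in RefSeq, on GRCm38.p6, a later build than the mm9 build of the tables. Of the 117 genes listed up at day 2, 79 had a window, with 93 windows in all. A repeat spaced by 5 was found in 1 window (1.08%), that of Cyp26a1, and a repeat spaced by 2 in 1 window, that of Tinagl1. Of all 32851 RefSeq windows, 0.0974% held a repeat spaced by 5 and 0.268% a repeat spaced by 2. No window of the genes listed down at day 2 or up at day 4 held either. A match describes letters and is not a bound site. Both windows are shown in full because they are the only ones among the early genes with such a repeat, with the hexamers in capitals. That of Cyp26a1 is on the plus strand of chr19:37697558-37697857, and its repeat reads on the opposite strand, starting 32 bases before the gene start. That of Tinagl1 is on the minus strand of chr4:130175073-130175372, and its repeat starts 107 bases before the gene start.
Cyp26a1: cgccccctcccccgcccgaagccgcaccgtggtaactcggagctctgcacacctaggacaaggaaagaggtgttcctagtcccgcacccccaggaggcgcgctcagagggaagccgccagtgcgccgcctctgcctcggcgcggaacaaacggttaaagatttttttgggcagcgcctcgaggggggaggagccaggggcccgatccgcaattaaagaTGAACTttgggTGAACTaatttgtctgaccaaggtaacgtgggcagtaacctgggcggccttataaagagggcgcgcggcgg
Tinagl1: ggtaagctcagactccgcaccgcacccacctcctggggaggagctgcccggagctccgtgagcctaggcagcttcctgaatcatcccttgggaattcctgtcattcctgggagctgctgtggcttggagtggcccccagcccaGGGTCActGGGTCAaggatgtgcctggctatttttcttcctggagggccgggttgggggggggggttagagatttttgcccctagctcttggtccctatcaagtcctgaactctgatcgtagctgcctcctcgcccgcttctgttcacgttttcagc

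At day 2, 117 genes were listed up and 34 down, which is 6.67% and 1.94% of the 1753 genes in the tables. At day 4 the numbers were 146 up (8.33%) and 58 down (3.31%). At day 10, 383 genes were listed up (21.8%) and 160 down (9.13%). Over the 3 days, 530 genes were up and 196 down, and no gene was listed in opposite directions on different days of BMS753. Most members, 567 of 726, were listed on 1 day only.

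The tables limit any statement about timing. The smallest listed absolute log2 fold change was 1.82 at day 2, 4.13 at day 4 and 4.46 at day 10. A gene with a small change could therefore be listed at day 2 and not later. The standard error of each fold change was recovered from the fold change and its p-value, and its median was 1.15 at day 2, 2.18 at day 4 and 2.11 at day 10. Errors given with values below are these standard errors, on the log2 scale, and they rest on a comparison of single libraries. In each table the standard errors fell into separate branches with a gap between them, as in the plot of standard error against fold change. The upper branch held 34 genes at day 2, 62 at day 4 and 182 at day 10, and its members are called wide-error genes here. Genes with exactly the same fold change and p-value as another gene lay almost entirely in this branch, with 6 of 6 at day 2, 12 of 12 at day 4 and 45 of 47 at day 10. Of the genes listed down with a wide error at day 10 in both BMS753 and ethanol, 11 of 11 had values equal to within 0.01 in the 2 tables. Whether these genes had no reads in a library was not tested, since no counts were used. The size of a wide-error fold change depends on the fit and is read here for its direction only.

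**Figure D1:**
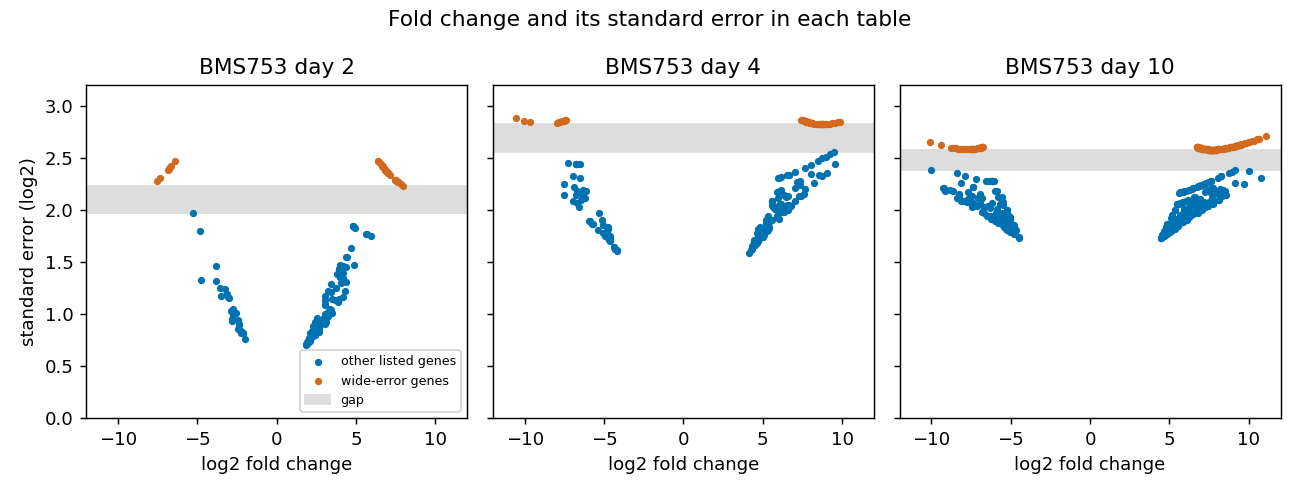
Log2 fold change against WT ethanol day 2 (horizontal) and its standard error on the log2 scale (vertical) for every listed gene at BMS753 days 2, 4 and 10. Orange points are the 34, 62 and 182 wide-error genes above the grey gap, and the lowest standard errors at day 2 (from 0.700) lie well under those at day 4 (from 1.59) and day 10 (from 1.73).

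Genes up at day 2 and not later numbered 90. Of these, 65 had a log2 fold change under 4.13 and so below anything listed at day 4, and 71 lay below anything listed at day 10. Their absence later cannot be told apart from the higher limit of the later tables. Of the other genes listed up at day 2, 7 were listed again at day 4 alone, 11 at day 10 alone and 9 on both. First listings at day 4 comprised 50 genes seen on that day only and 80 listed again at day 10. The largest class was first listed at day 10, with 283 genes. Among the genes listed down, 110 were confined to the day 10 table, 23 to that of day 2 and 11 to that of day 4, and 41 were in both later tables. A further 2 were down at days 2 and 4, 5 at days 2 and 10, and 4 on all 3 days.

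**Figure D2:**
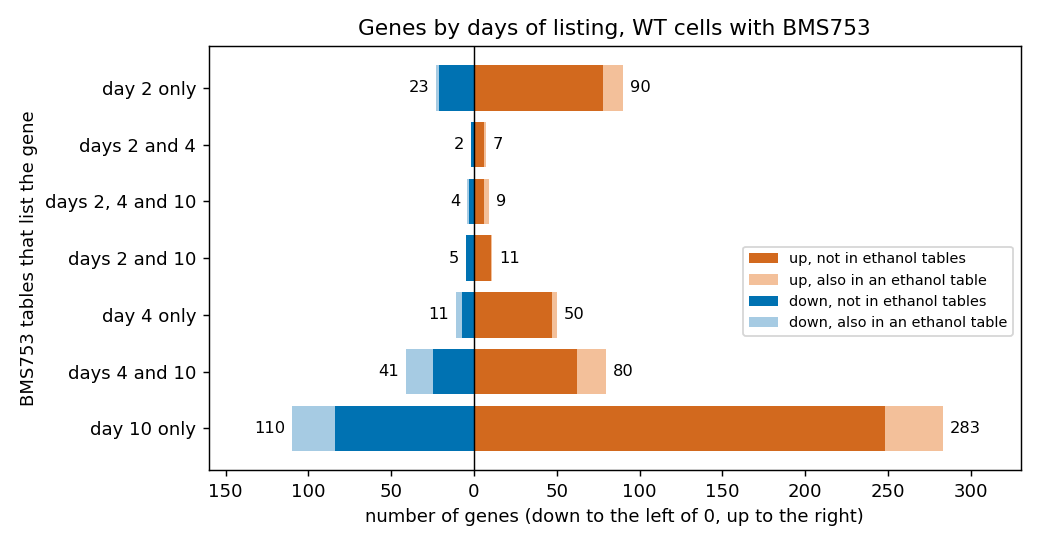
Number of genes (horizontal, down to the left of 0 and up to the right) for each combination of BMS753 days that list them (vertical). Pale segments are genes that ethanol alone also listed in the same direction at day 4 or 10, and the class first listed at day 10 is the largest, with 283 genes up and 110 down.

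The ethanol tables show what changed with time in culture without an agonist. In the same direction, 122 of the 726 members (16.8%) were also listed in ethanol at day 4 or 10, 73 of those up and 49 of those down. In either direction, ethanol on these days listed 346 of the 1753 genes in the tables, which is a similar share. At day 4, 3 of the 146 genes up with BMS753 and 0 of the 58 down were in the ethanol table of that day. That table held only 57 of the 1753 genes, 43 up and 14 down, so few shared genes would be found for any set. Nothing is read from the overlap at day 4. At day 10, ethanol listed 167 genes up (9.53% of 1753) and 134 down (7.64%). Of the 383 genes up with BMS753 at day 10, 55 were also up in ethanol. That is 14.4% of the BMS753 genes, beside 9.53% of all genes, and 32.9% of the ethanol genes. Of the 160 genes down, 43 were also down in ethanol. That is 26.9% of the BMS753 genes, beside 7.64% of all genes, and 32.1% of the ethanol genes.

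The retinoid list had 11 members in the tables of the series, of which 3 were up at day 2 (27.3%, beside 6.67% of all genes). Crabp1, which binds retinoic acid in the cytoplasm, was up on all 3 days, with log2 fold changes of 2.74 ± 0.92 at day 2, 6.02 ± 1.91 at day 4 and 4.88 ± 1.78 at day 10. Its later values differ by less than their standard errors. Cyp26a1, the enzyme that degrades retinoic acid and the gene whose promoter is printed above with a repeat spaced by 5, was listed at day 2 only, at 2.62 ± 0.89. That value is below the smallest fold change listed at day 4 or 10. Cyp26a1 lies on the plus strand of mm9 at chr19:37772298-37776018. Stra6, the membrane receptor for retinol-binding protein, was up by 2.31 ± 0.88 at day 2 and 4.76 ± 1.72 at day 4. Tinagl1, the gene of the other printed promoter, encodes a secreted matricellular protein and was up at day 2 only, at 2.39 ± 0.81.

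At day 10, 2 of the 11 retinoid genes were up (18.2%, beside 21.8% of all genes) and 1 was down (9.09%, beside 9.13%), near the shares of all genes. Aldh1a2 and Dhrs3 were first listed on that day. Aldh1a2, which makes retinoic acid from retinaldehyde, was up by 5.71 ± 2.07, and Dhrs3, which reduces retinaldehyde to retinol, was at −8.24 ± 2.15. No gene of the retinoid list that BMS753 listed was also listed in ethanol in the same direction, beside 122 of all 726 members. The receptor genes Rara, Rarb and Rarg were in none of the tables. In cells given all-trans retinoic acid (ATRA), whose comparisons use the same reference, Cyp26a1 stood at 4.94 ± 1.63 at day 2 and Stra6 at 5.00 ± 1.65 at day 2. Crabp1 stood at 5.02 ± 1.77 at day 4 and 5.21 ± 1.89 at day 10 with ATRA and was not listed at day 2, where the smallest listed change was 3.55.

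Hox genes and their cofactors had the highest share listed up at day 4 among the 14 gene lists examined. Of 27 members of this list in the series, 1 was up at day 2, 16 at day 4 (59.3%, beside 8.33% of all genes) and 12 at day 10 (44.4%, beside 21.8%). Hoxb2, a hindbrain gene, was the one listed at day 2, at 2.78 ± 0.94, and it stood at 4.67 ± 1.71 at day 4. At day 4 it was joined by 11 other Hox cluster genes. Hoxb4 had the highest day 4 value among those without a wide error, at 9.48 ± 2.56, and stood at 8.09 ± 2.31 at day 10. Hoxa2 was at 8.49 ± 2.47 and 7.62 ± 2.28 on these days, Hoxa3 at 8.98 ± 2.51 and 6.82 ± 2.23, Hoxb8 at 6.65 ± 2.05 and 8.32 ± 2.13, and Hoxc6 at 6.64 ± 2.34 and 7.31 ± 2.26. Hoxa7 and Hoxb3 were up with a wide error on both days.

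The Hox genes seen at day 4 only included Hoxb1 (9.01, wide error), Hoxc4 (5.41 ± 1.83) and Hoxc5 (9.06 ± 2.35). Those first seen at day 10 were Hoxb7 (6.84 ± 1.99), Hoxb9 (5.44 ± 1.84) and Hoxc9 (6.91, wide error). By gene number, these genes of day 4 only lay at the 3′ and middle part of their clusters, and those first seen at day 10 lay farther 5′, while Hoxa7 and Hoxb8 were listed on both days. A missing day is not a measured absence, since smaller changes were not listed. Hoxc13 was the only listed Hox gene that was down, at −5.55 ± 2.12 at day 10, and it was also down in ethanol at day 10.

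Cofactors followed the Hox genes. Meis1, a partner of Hox proteins on DNA, was up by 8.56 ± 2.34 at day 4 and 9.15 ± 2.25 at day 10, and Meis2 by 5.31 ± 1.81 and 5.28 ± 1.82. Cdx1 and Cdx2, which act upstream of the Hox genes in the posterior embryo, were seen at day 4 only, Cdx1 at 6.13 ± 2.31 and Cdx2 with a wide error. No Hox gene or cofactor that was up with BMS753 was up in ethanol, beside 73 of all 530 genes up with BMS753. Hoxaas2, an antisense transcript of the Hoxa cluster, was up with a wide error on all 3 days. Whether counting used strand is not given in the sources used here, so its reads and those of overlapping Hoxa genes cannot be told apart.

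**Figure D3:**
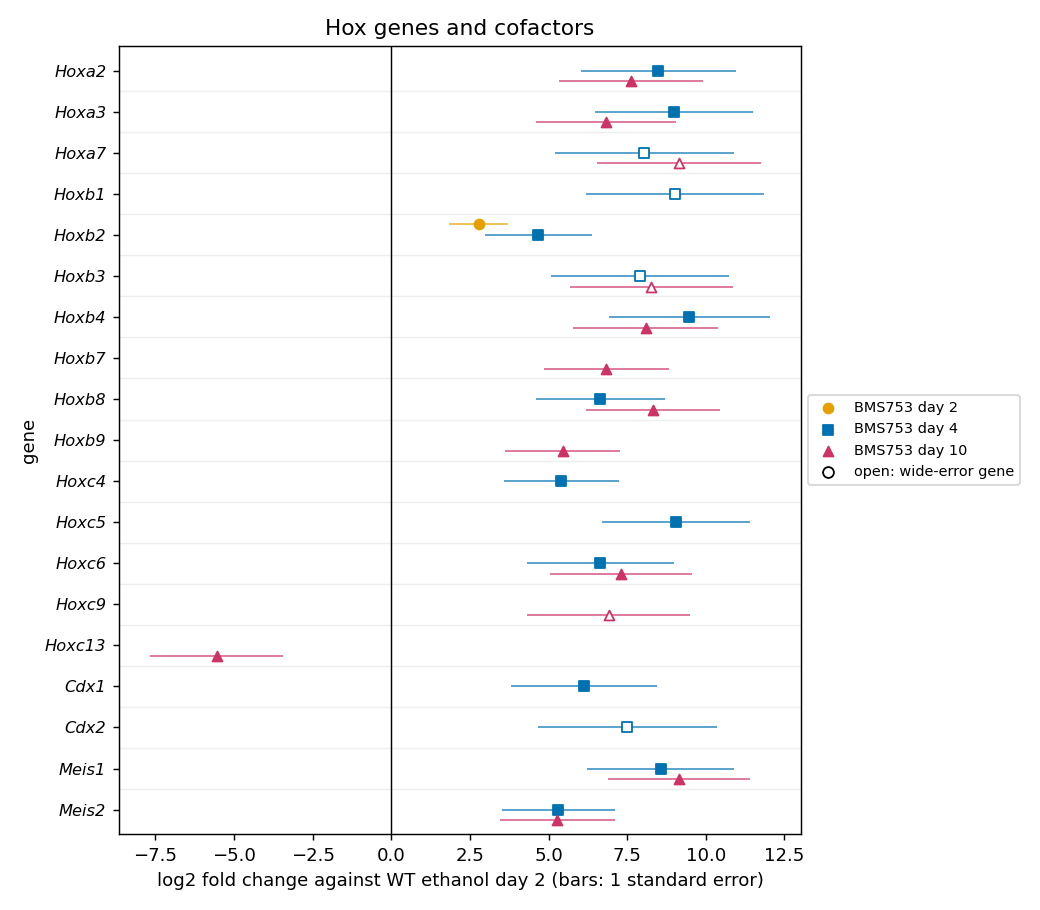
Log2 fold change against WT ethanol day 2 (horizontal) of listed Hox genes and cofactors (vertical) at BMS753 days 2, 4 and 10. Bars are 1 standard error, open symbols are wide-error genes and a missing symbol means not listed. Only Hoxb2 has a day 2 value, and Hoxc13 is the only gene left of 0.

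Transcription factors of neural progenitors and neurons were also listed mainly from day 4, in a list that includes the Notch ligands Dll1 and Dll4. Of its 61 members in the series, 1 was up at day 2 (1.64%, beside 6.67% of all genes), 25 at day 4 (41.0%, beside 8.33%) and 30 at day 10 (49.2%, beside 21.8%). Sox3 alone was down, at −4.76 ± 1.76 at day 10. The early one was Irx5, a homeobox gene of the Iroquois family, at 5.69 ± 1.77, 6.53 ± 2.33 and 6.51 ± 2.21 on days 2, 4 and 10. These values did not differ beyond their errors. Irx5 lies on the plus strand of mm9 at chr8:94881695-94885351, and with ATRA it stood at 6.45 ± 2.32, 6.94 ± 2.36 and 6.55 ± 2.27.

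At day 4 the list included genes of the dorsal neural tube. Pax3 was up by 9.24 ± 2.54 and stood at 7.47 ± 2.27 at day 10. Pax7, its close relative, was up with a wide error at day 4 only. Msx1, a target of BMP signals, was at 7.62 ± 2.16 and 7.06 ± 2.02 on the 2 days, Msx2 at 6.34 ± 2.00 at day 4 only, and Lmx1a, a roof plate factor, at 7.67 ± 2.20 and 5.35 ± 1.91. Lbx1, which marks dorsal interneurons, was at 6.34 ± 2.15 and 7.64 ± 2.16. Msx3 and Gbx2 were up with a wide error on both days.

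Proneural and Notch genes were listed from day 4. Insm1, which acts in dividing neuronal precursors, was up by 7.32 ± 2.28 at day 4 and 7.51 ± 2.19 at day 10. Neurog1 was seen at day 4 only, at 7.68 ± 2.41, and Neurog2 at day 10 only, at 5.98 ± 2.18. The Notch ligand Dll1 was seen at day 4 only, at 4.62 ± 1.78, while its relative Dll4 and the Notch target Hes5 were up with a wide error on both days. Nhlh1 and Nhlh2, which mark newborn neurons, stood at 6.08 ± 2.18 and 5.57 ± 2.05 at day 4 and at 7.33 ± 2.18 and 7.92 ± 2.16 at day 10. Neurod1 was up with a wide error on both days. Pou3f2 was at 5.96 ± 2.31 and 6.76 ± 2.22. Nr2f1 and Nr2f2, orphan nuclear receptors known to respond to retinoids, were at 5.24 ± 1.80 and 6.54 ± 2.05 at day 4 and at 5.19 ± 1.81 and 6.92 ± 2.02 at day 10.

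In the neural factor list, 11 genes were listed up at day 10 only, Neurog2 among them. Scrt1, a repressor of neuronal precursors leaving the cycle, was up by 7.06 ± 2.07, Uncx by 7.64 ± 2.20, Pax2 by 5.43 ± 1.87, Myt1l, a pan-neuronal factor, by 5.50 ± 2.05, and Onecut2 by 4.97 ± 1.82. Barhl1, Ebf3 and Scrt2 lay between 4.75 and 5.00, close to the smallest listed change of 4.46. Lhx5 and Atoh1, a factor of cerebellar and hindbrain neurons, had a wide error. In the same direction, 122 of all 726 members (16.8%) were also listed in ethanol at day 4 or 10. Of the 37 genes of the neural factor list that BMS753 listed, 4 were also up in ethanol at day 10. They included Insm1 (5.32 ± 1.84 in ethanol), Irx3 (4.59 ± 1.55) and Nr2f2 (4.26 ± 1.54). Irx3 stood at 7.25 ± 2.14 at day 4 and 5.96 ± 1.94 at day 10 with BMS753.

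Genes of differentiated neurons were listed up at day 10 and on no earlier day. Of 45 genes for the neuronal cytoskeleton, axon growth and RNA binding, 20 were in the tables of the series. Of these 20, 0 were up at days 2 and 4, and 11 at day 10 (55.0%, beside 21.8% of all genes in the tables). Dcx, a microtubule protein of migrating neurons, was up by 7.56 ± 2.05, Mapt, which encodes tau, by 7.45 ± 2.04, and Sncg, a synuclein of peripheral and some central neurons, by 5.93 ± 1.93. Actl6b, a subunit of the neuronal BAF chromatin remodeller, was up with a wide error. Thy1, a surface protein of neurons and of several other cells, was listed down at day 4, at −6.74 ± 2.14. Ethanol listed 1 of the 20 up at day 4 and 0 at day 10 (beside 9.53% of all genes at day 10). On the same day as these neuronal genes, 25 of 51 mesenchyme and matrix genes were also listed up.

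Synaptic genes followed the same timing. Of 87, 21 were in the tables of the series, with 0 up at days 2 and 4 and 15 at day 10 (71.4%, beside 21.8%). Npy alone was down, at day 4 (4.76%, beside 3.31%). Gad1, which makes GABA, was up by 7.63 ± 2.28, and Syt4, a synaptotagmin of secretory vesicles, by 6.58 ± 1.97. Slc17a6, the vesicular glutamate transporter VGLUT2, Cbln2, a synapse organizer, and the neuropeptide gene Cartpt had wide errors. Ethanol at day 10 listed 2 of the 21 up (9.52%, beside 9.53%) and 1 down (4.76%, beside 7.64%).

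Of 53 ion channels and transmitter receptors in the series, 3 were up at day 2 (5.66%, beside 6.67% of all genes), 1 at day 4 (1.89%, beside 8.33%) and 12 at day 10 (22.6%, beside 21.8%), and 5 were down at day 10 (9.43%, beside 9.13%). The AMPA receptor subunit Gria2 was up with a wide error at day 10 only. The potassium channel gene Kcnc1 was likewise up with a wide error at day 10, and the sodium channel subunit gene Scn4b at day 4 only. Htr1d, a serotonin receptor, fell on all 3 days, to −3.56 ± 1.25, −6.78 ± 2.44 and, with a wide error, −8.44 at day 10, where ethanol had the same value. Htr7, another serotonin receptor, was at −10.55 with a wide error at day 4 and at −5.45 ± 1.86 at day 10, beside −3.15 ± 1.21 in ethanol. Of 41 guidance and adhesion genes, 9 were up at day 10 (22.0%, beside 21.8%) and 1 was down (2.44%, beside 9.13%). Among those up, Robo3, which lets commissural axons cross the midline, stood at 7.70 ± 2.11 at day 10 only. Epha3 was up by 6.25 ± 1.99 and Cdh11 by 6.05 ± 1.91, also at day 10 only. Pcdh8, a protocadherin, was up with a wide error on all 3 days, and Sema4f with a wide error at day 10 in both BMS753 and ethanol.

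**Figure D4:**
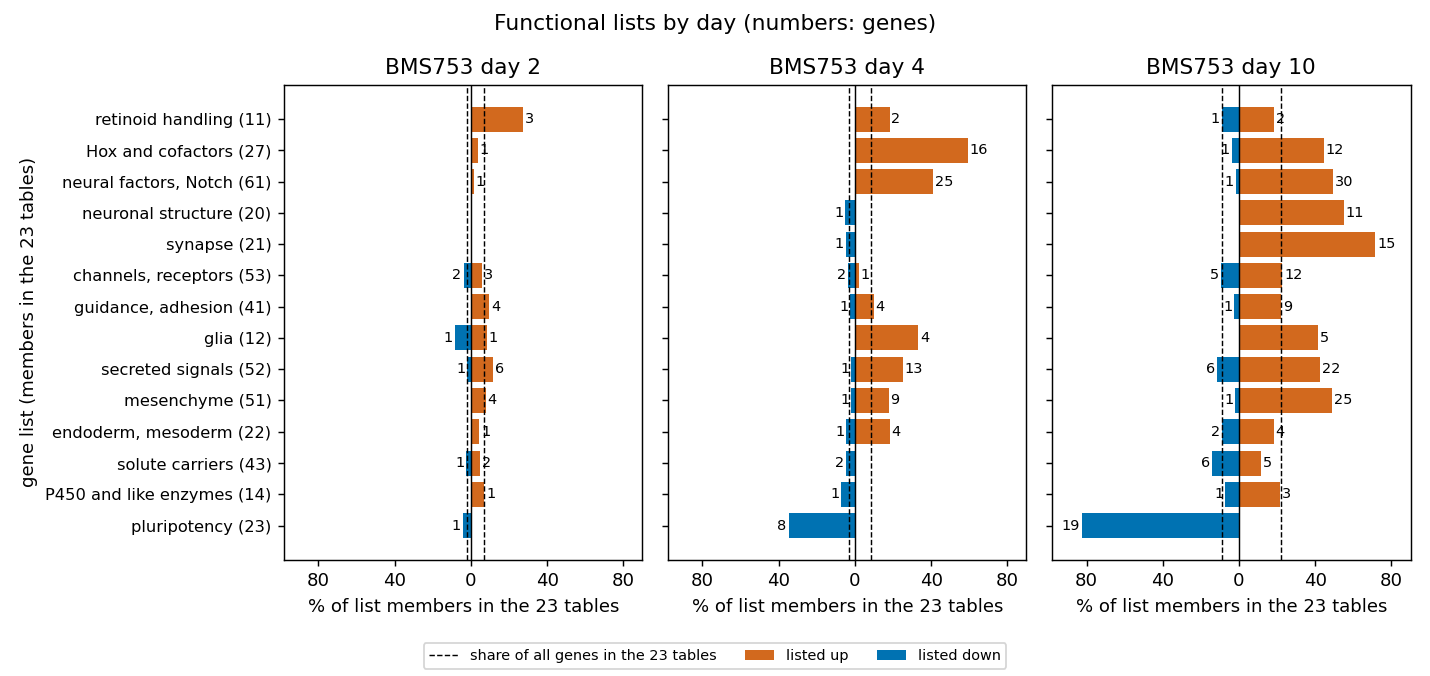
Percent of the members of each functional list in the 23 tables (horizontal, down to the left of 0) that were listed at BMS753 days 2, 4 and 10, with the number of genes beside each bar. Dashed lines are the share of all 1753 genes, and the Hox and neural factor bars pass them at day 4 while those of neuronal structure and synapse do so at day 10.

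Secreted signals and their inhibitors were listed on every day, in a list that also holds the receptor Ngfr and the transcription factor Gli1. Of 52, 6 were up at day 2 (11.5%, beside 6.67% of all genes), 13 at day 4 (25.0%, beside 8.33%) and 22 at day 10 (42.3%, beside 21.8%). Down were 1 at day 2 (1.92%, beside 1.94%), 1 at day 4 (1.92%, beside 3.31%) and 6 at day 10 (11.5%, beside 9.13%). Those of day 10 were Lefty1, Lefty2, Nodal, Sost, Gdf3 and Fgf4. Wnt1, a dorsal midline and midbrain signal, was up on all 3 days, by 4.89 ± 1.47, 9.57 ± 2.44 and 8.35 ± 2.19, and was not listed in ethanol. It lies on the plus strand of mm9 at chr15:98620288-98624268. With ATRA, Wnt1 stood at 8.34 ± 2.30 at day 4 and 5.86 ± 2.06 at day 10. Wnt10b was up with a wide error on the 3 days and also in ethanol at day 10. Wnt8a was up with a wide error at day 2 only. Wnt3 stood at 5.90 ± 2.00 and 5.48 ± 1.91 at days 4 and 10. Porcn, which adds the lipid that Wnt proteins need for secretion, was at 4.30 ± 1.22 and 5.45 ± 1.89 at days 2 and 4.

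Of the other genes in the signal list, Dkk1, a Wnt inhibitor, was up with a wide error at day 4 only. Ngfr, the low-affinity neurotrophin receptor, was up with a wide error at days 4 and 10. Bmp4, a dorsalizing signal, was at 7.33 ± 2.24 at day 4 and 6.84 ± 2.10 at day 10, and ethanol alone gave 6.68 ± 1.76 at day 10. Inhbb, an activin subunit, had a wide error and nearly the same value in both day 10 tables, 8.94 with BMS753 and 8.91 in ethanol. Of the 34 signal genes listed with BMS753, 13 were also listed in ethanol in the same direction, beside 122 of all 726 members (16.8%).

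Markers of other cell types were listed up on the same day as those of neurons. Of 51 mesenchyme, smooth muscle and matrix genes, 4 were up at day 2 (7.84%, beside 6.67% of all genes), 9 at day 4 (17.6%, beside 8.33%) and 25 at day 10 (49.0%, beside 21.8%). Down were Thy1 at day 4 (1.96%, beside 3.31%) and Tbx1 at day 10 (1.96%, beside 9.13%). Ethanol at day 10 listed 8 of the 51 up (15.7%, beside 9.53%). Col3a1, a fibrillar collagen, was up by 5.23 ± 1.88 at day 4 and 10.77 ± 2.31 at day 10, and was not listed in ethanol. Its increase between the days, 5.54, exceeded the combined standard error of 2.98. Col12a1 was at 6.68 ± 2.34 and 9.13 ± 2.38, beside 6.55 ± 1.96 in ethanol at day 10. Tbx2, Osr1 and Ccn4, genes of embryonic mesenchyme, were up with a wide error. The part of these cells in the neuronal lists was not tested. In bulk RNA, more cells of a type and more RNA per cell cannot be told apart.

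Of 37 glial genes, 12 were in the tables of the series. Of these 12, 4 were up at day 4 (33.3%, beside 8.33% of all genes) and 5 at day 10 (41.7%, beside 21.8%). At day 2 only, Ptprz1 was up (8.33%, beside 6.67%) and Id4 was down (8.33%, beside 1.94%). Ethanol at day 10 listed 3 of the 12 up (25.0%, beside 9.53%) and 2 down (16.7%, beside 7.64%). Fabp7, a radial glia gene, was up by 5.36 ± 1.94 at day 4 and 9.71 ± 2.25 at day 10. Ethanol at day 10 gave Fabp7 4.27 ± 1.60, so BMS753 was higher by 5.44, with a combined standard error of 2.76. Sox9 stood at 5.95 ± 2.11 and 6.64 ± 2.09, beside 4.95 ± 1.77 in ethanol. Vcan, a matrix proteoglycan, was at 4.73 ± 1.75 and 5.21 ± 1.83, and Slc1a2, the astrocyte glutamate transporter, at 5.28 ± 1.84 at day 10 only. Pdgfra, of oligodendrocyte precursors and mesenchyme, had a wide error.

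Of 22 endoderm, mesoderm and epithelial genes, 1 was up at day 2, 4 at day 4 (18.2%, beside 8.33% of all genes) and 4 at day 10 (18.2%, beside 21.8%). Foxa1, an endoderm and floor plate factor, was up by 6.16 ± 2.19 at day 4 only. The keratin genes Krt5 and Krt14 were up with a wide error at day 10 only. Of the same list, 1 was down at day 4 (4.55%, beside 3.31%) and 2 at day 10 (9.09%, beside 9.13%). Cdh1, an epithelial cadherin, was at −4.21 ± 1.61 and −5.28 ± 1.82 on these days, and Tek was down at day 10 only. Ethanol at day 10 also listed 4 of the 22 up (18.2%, beside 9.53%) and 2 down (9.09%, beside 7.64%).

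Pluripotency genes had the highest share listed down at days 4 and 10 among the 14 lists. Of 46 in the list, 23 were in the tables of the series. Of these 23, 1 was down at day 2, 8 at day 4 (34.8%, beside 3.31% of all genes) and 19 at day 10 (82.6%, beside 9.13%), and 0 were up on any day. Gdf3, a TGF-β family factor of pluripotent cells, was the one listed at day 2, at −2.28 ± 0.82, and it stood at −5.96 ± 1.91 at day 10. Pou5f1, which encodes Oct4, was at −5.39 ± 1.80 at day 4 and −8.14 ± 2.09 at day 10, and was not listed in ethanol. It lies on the plus strand of mm9 at chr17:35642982-35647721. Pou5f1 has near-identical retrocopies, between which counting could split reads, so its value is uncertain.

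Other pluripotency genes were down at both days 4 and 10. Tdgf1, the Nodal co-receptor Cripto, was at −6.97 ± 2.09 and −10.03 ± 2.38, Utf1, a chromatin factor, at −5.74 ± 1.86 and −9.17 ± 2.18, Foxd3 at −4.64 ± 1.73 and −7.72 ± 2.10, and Tdh, a threonine-degrading enzyme of mouse pluripotent cells, at −6.74 ± 2.07 and −8.63 ± 2.18. L1td1 and Eras were also down on both days, at −6.68 ± 1.97 and −7.43 ± 2.13 at day 10. For Utf1 and Foxd3 the decrease between the days exceeded the combined standard error. Fgf4 was at −9.65 with a wide error at day 4 and at −8.41 ± 2.35 at day 10.

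Genes first listed down at day 10 included Zscan10 (−9.26 ± 2.22), Lefty1 (−8.28 ± 2.12), Lin28a (−8.08 ± 2.08), Nr0b1 (−7.70 ± 2.17), Sall4 (−6.78 ± 1.98), Dnmt3l (−6.17 ± 2.28), Nanog (−5.47 ± 1.87) and Nodal (−4.87 ± 1.81). Dppa4 and Lefty2 were down with a wide error. Of all 160 genes down with BMS753 at day 10, 43 were also down in ethanol on that day (26.9%). Among the 19 pluripotency genes, ethanol at day 10 listed 8 down. For the 7 of these without a wide error, ethanol placed Tdgf1 at −3.37 ± 1.19, Lefty1 at −3.05 ± 1.14, Nanog at −3.24 ± 1.24, Nr0b1 at −4.00 ± 1.38, Fgf4 at −4.17 ± 1.42, Foxd3 at −4.63 ± 1.39 and Tdh at −5.22 ± 1.44. Each of these 7 values is closer to 0 than the BMS753 value of day 10, which the limits of the tables favour, since ethanol listed changes down to 2.77 and BMS753 down to 4.46. Lefty2 had the same value in both.

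**Figure D5:**
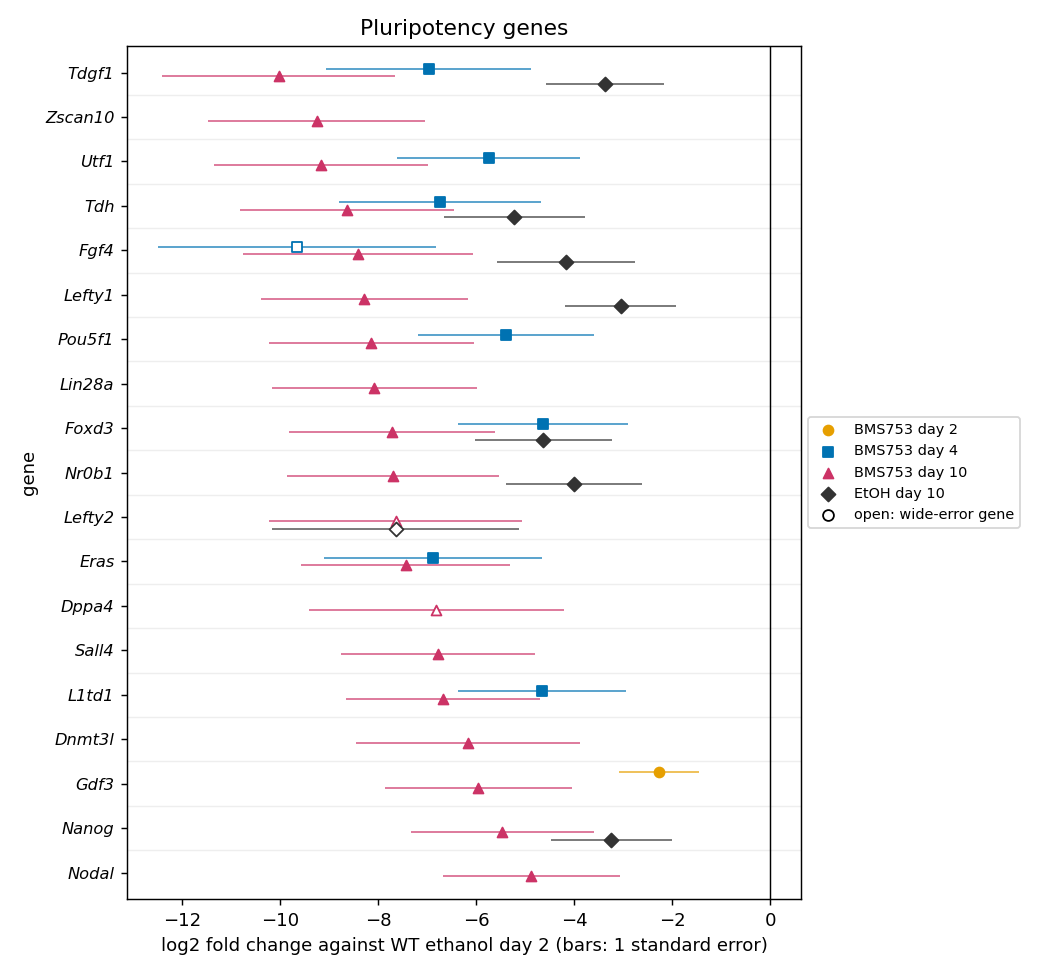
Log2 fold change against WT ethanol day 2 (horizontal) of the 19 listed pluripotency genes (vertical) at BMS753 days 2, 4 and 10 and in ethanol at day 10. Bars are 1 standard error, open symbols are wide-error genes and a missing symbol means not listed, and the ethanol values (black diamonds) lie closer to 0 than the BMS753 values of day 10 for each gene with both except Lefty2, in tables whose smallest listed changes were 2.77 and 4.46.

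At day 10, 98 genes were listed in both the BMS753 and the ethanol table in the same direction, and 55 of them had no wide error in either. The smallest listed absolute change was 4.46 with BMS753 and 2.77 in ethanol, so that a gene closer to 0 with BMS753 than 4.46 could not be among them. These limits favour genes farther from 0 with BMS753, and no direction is read from their number. The differences (BMS753 minus ethanol) are therefore given for single genes. The largest were those of Tdgf1 (−6.66), Lefty1 (−5.22), the de novo DNA methyltransferase Dnmt3b (−4.69) and D7Ertd143e (−4.53), beside that of Fabp7 given above. The 5 named genes with the smallest differences, Plekhd1os, Capn3, Cstdc1, Sox15 and Tmem179, were all down with a wide error in both tables.

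Few genes were listed on all 3 days. Those up were Crabp1, Irx5, Wnt1, Adcy8, Hoxaas2, Mxd4, Wnt10b, Pcdh8 and Foxd1, and for the last 6 the errors were wide on each day. Mxd4, an antagonist of Myc, Wnt10b and Foxd1 were also up in ethanol. Those down were Htr1d, Slc35d3, Efhd1 and a predicted gene. Slc35d3, a nucleotide sugar transporter, stood at −2.26 ± 0.84, −7.55 ± 2.25 and −4.82 ± 1.79, and Efhd1, a calcium-binding mitochondrial protein, at −2.12 ± 0.82, −4.64 ± 1.75 and −5.88 ± 1.91.

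Genes of days 2 and 4 and not 10 included Zfp703, a transcriptional repressor, at 3.51 ± 1.01 and 4.33 ± 1.65. Down on these days were Enpp2, which encodes autotaxin (−2.79 ± 0.95 and −6.43 ± 2.10), and the myelin-associated Pllp (−2.76 ± 0.99 and −4.73 ± 1.83). Genes up at days 2 and 10 included Mybpc1, a myosin-binding protein (4.65 ± 1.63 and 7.56 ± 2.20), and Wscd2 (4.43 ± 1.55 and 6.50 ± 2.08), while Dmrt3, a factor of spinal interneurons, Pear1 and the neuronal splicing factor Srrm4 had wide errors. Down on these days were Myb (−2.41 ± 0.85 and −5.20 ± 1.83), Osgin1 (−3.29 ± 1.24, wide at day 10), Rprml and Tnni3, the last 2 with a wide error.

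The largest values of the genes seen at day 2 only all had wide errors, those of Gpx6, Wnt8a, Tafa3, Halr1 and Fv1 among the genes up and of Ptpn5, Dnah12, Plaat1, Siglecg and Vsig8 among those down. Fv1 was also up in ethanol at both days. At day 4 only, the largest decreases were those of Aloxe3 (wide error), Gsx2 (−6.76 ± 2.44), Thy1, Bace2 (−6.54 ± 2.31) and Vwa3a (−6.49 ± 2.44), and Gsx2 and Bace2 were also down in ethanol at day 10. At day 10 only, Upp1, Myl3 and Gjb5 were down with wide errors. Among genes on days 4 and 10, Dmrta1 and Plau were up with wide errors, Tspan10 was at −10.07 with a wide error on both days and in ethanol at day 10, and Cnga3 was at −6.39 ± 2.16 at day 4 and wide at day 10.

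Of 43 solute carriers and pumps, 5 were up (11.6%, beside 21.8% of all genes) and 6 down (14.0%, beside 9.13%) at day 10. Aqp3, a water and glycerol channel, was at −4.68 ± 1.71 and −7.73 ± 2.08 at days 4 and 10, beside −4.16 ± 1.30 in ethanol, and Slc38a3, a glutamine transporter, at −5.98 ± 1.90 at day 10. Of 14 cytochrome P450 and related enzymes, 3 were up at day 10 (21.4%), about the share of all genes, namely Aldh1a2 and, with wide errors, Akr1c13 and Cyp4x1. Cyp2b23 was down at −4.64 ± 1.70 and −9.20 ± 2.21 at days 4 and 10, and as a member of a family of near-identical genes its value is uncertain.

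The values of days 4 and 10 were also set side by side. The smallest listed absolute change was 4.13 at day 4 and 4.46 at day 10, which favours values farther from 0 at day 10. Of 89 genes up on both days, 57 had no wide error, and of these 32 were higher and 25 lower at day 10, with a median change of 0.29. The combined standard error counts the shared reference in both values and is too wide for such a change. It was exceeded in 3 of the 57, Col3a1 and Fabp7 among them. Of 45 genes down on both days, 33 had no wide error, and 28 of these were lower at day 10, with a median change of −1.07. In 6 of the 33 the change exceeded the combined standard error, which was the case for Utf1, Foxd3, Dnmt3b, Aqp3, Cyp2b23 and Nr5a1, a nuclear receptor that can bind the Pou5f1 gene.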

How the data were processed

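RNA of 24 conditions of P19 cells was sequenced, with 1 library each and no stated replicates. The authors aligned reads to mm9 (Bowtie2 2.1.0 in their processing notes), counted them per gene using featureCounts, and fitted every library against WT ethanol day 2 in DESeq2. The deposited tables hold the log2 fold change and unadjusted p-value of that comparison for genes with p under 0.01, and 1 table, of ATRA at day 2, also holds a deposited standard error, treated as a score in log2 units. These are the authors' own model values, reused here as the measurements. Read counts were not used here, depth is unknown, and single libraries allow no test of conditions.

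Standard errors were computed from each fold change and its two-sided normal p-value. For the 144 genes with a deposited one, the largest relative difference was 4.27e-08. Wide-error genes lie above the largest gap in the upper part of the range of standard errors in a table. Steps were tested on simulated data with 200 genes. Genes were matched to 14 lists, most of them by exact symbol. Channels and receptors, guidance and adhesion genes, solute carriers, and P450 and related enzymes were matched by a pattern in the symbol. Shares use the members found in any of the 23 tables, and shares of all genes use the 1753 genes found there. The BMS753 tables are among the 23, so a gene that they alone listed counts as a member. Full lists were longer, with 29 symbols for retinoid handling, 48 for Hox genes and cofactors, 123 for neural factors and 110 for signals. Those for mesenchyme and for endoderm and mesoderm held 81 and 61.

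The members and lists were chosen with earlier results of these data known. Named genes are the 5 largest changes per pattern and direction with a gene name, all listed members of the retinoid, Hox, pluripotency and neural factor lists, the 5 largest of each other list, and the 5 largest and 5 smallest day 10 differences from ethanol. The all-day genes, Tinagl1, Bmp4, Nr5a1, Aqp3, Cyp2b23, Cdh1, Tek, Id4, Ptprz1, Tbx1, Npy, Sost and Gli1 beyond that rule were named after their values were seen. Some genes that the rule names are not reported here. Coordinates of genes are from GENCODE M1 on mm9. Alternatives are given in the closing section. Versions were matplotlib 3.10.9, scipy 1.17.1, numpy 2.4.6, pandas 2.3.3 and Python 3.11.15.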

Additional observations from a re-analysis of the deposited data

Results flagged for a closer look

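Tagln, which encodes the smooth muscle protein transgelin, was the only one of the 726 members listed in opposite directions in the WT BMS753 and ethanol tables. With BMS753 it was up by 2.48 ± 0.83 at day 2 and not listed later. In ethanol it was at −2.17 at day 4 and at 4.55 at day 10. The difference between these values was not tested, since each rests on 1 library.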

How the results depend on the processing

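No paired analysis was possible because each condition had 1 library, and for the same reason no library could be left out. A minimum absolute log2 fold change of 2, matching with older symbols and removal of clone-named genes moved no count by over 1.5 times. A p-value limit of 0.001 left 18 genes up and 2 down at day 2, 25 and 6 at day 4, and 109 and 39 at day 10. Among genes up it left 15 confined to day 2, 13 to day 4 and 96 to day 10, 10 on both later days and 2 on all days, and among genes down 4 on both later days and 35 confined to day 10. It left 13 genes also in ethanol, 5 Hox list genes up at day 4 and 6 at day 10, 6 and 14 neural factors, and at day 10 3 neuronal structure, 5 synaptic and 15 mesenchyme genes. The pluripotency count at day 10 stayed within 1.5 times. With 1 common minimum of 4.46, 36 genes were up and 10 down at day 2, 19 were up at day 2 only, and 80 were also in ethanol. Leaving out genes also in ethanol left 37 down at day 4, 25 down at days 4 and 10, and 11 pluripotency genes down at day 10. Leaving out wide-error values, chosen after seeing the data, left 95 up at day 4, 237 up at day 10, 33 up at day 4 only, 173 up at day 10 only, 3 up on all days and 77 also in ethanol. The other counts stayed within 1.5 times. The stricter limits leave fewer rows by construction. Depth is unknown, so a gene not listed cannot be called undetected.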
